A study of Mus musculus with 6 samples.

Results

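Described here are 10 genes of fibroblast activation and of the myofibroblast state, chosen by name from the 36047 genes to which the transcripts of the files could be joined. They are 3 contractile genes (Acta2, Tagln and Cnn1), 3 genes of activated fibroblasts (Fap, Cthrc1 and Meox1) and 4 genes of resting fibroblasts (Pdgfra, Ddr2, Tcf21 and Pi16). All 10 had enough counts to be tested, among 20094 tested genes. The RNA came from the infarct area of female C57BL6 mice, labelled as 12 weeks old, whose left anterior descending artery was closed and reopened (ischemia/reperfusion, I/R), and was taken 48 h after I/R. In the treated group, 3 mice received LGK974 by daily gavage, a small molecule that inhibits Porcupine, the enzyme that adds the lipid a Wnt protein needs to be secreted. The 3 control mice had the same surgery and received the DMSO vehicle in citrate buffer. Both groups carry the injury, no mice without surgery are analysed here, and the comparison is of inhibitor with vehicle after injury. Each library came from 1 mouse.

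Cardiac fibroblasts keep up the matrix between muscle cells. After an infarct they proliferate, switch on matrix genes, and in part become myofibroblasts, which build contractile stress fibres and secrete collagen into the scar. Signals from TGF-beta, mechanical tension and the transcription factor SRF with its myocardin-related partners drive this change. Contractile genes such as Acta2 are also strongly expressed by the smooth muscle of vessels, so in whole tissue they do not belong to fibroblasts alone. Fewer cells of a type and less RNA per cell cannot be told apart in such tissue.

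The libraries held 41579787 to 80398211 estimated counts. Mitochondrial genes took 28.2% of them in LGK974 replicate 3 and 39.3 to 53.7% in the others. LGK974 replicate 3 also had the highest TMM factor, a scaling for library composition, at 1.40 against 0.816 to 1.06. In DMSO replicate 1, 99.3% of 1501 olfactory, vomeronasal and bitter taste receptor genes, which heart tissue is not known to use, had counts, against 60.4 to 88.5% in the other 5 libraries. Their median level was 34.6 counts per kb in DMSO replicate 1 and 3.32 to 13.1 in the others. On log2 values, the correlation over tested genes was 0.841 to 0.925 between DMSO replicate 1 and any other library and 0.923 to 0.966 between the other libraries. Fold changes of each gene are therefore also given without DMSO replicate 1 and without LGK974 replicate 3, which stood apart in several of the genes below.

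The fold change on the log2 scale, LGK974 over DMSO, as edgeR fitted it, is written LFC and its standard error SE. With LGK974, 8 of the 10 genes had an LFC above 0 and 2 below, where 40.5% of all tested genes were above. Meox1, a homeobox transcription factor of activated fibroblasts, showed the largest difference, about 3.03-fold. The contractile genes and Cthrc1 were high in 1 LGK974 mouse, and the genes of resting fibroblasts had LFCs from −0.07 to 0.59. With edgeR's quasi-likelihood test, 0 of the 10 reached an adjusted p of 0.05, like 0.0% of all tested genes. Before adjustment, p was under 0.05 for 2 of the 10, Meox1 and Cthrc1, both higher, and for 13.4% of all tested genes, 6.26% higher and 7.18% lower. A gene with edgeR's unadjusted p under 0.05 is below called nominally higher or lower. The LGK974 and DMSO libraries did not overlap in 2 of the 10 genes, Meox1 and Tcf21, both higher, and in 18.0% of all tested genes, 10.7% higher and 7.27% lower. The median LFC was 0.63 over the 10 genes and −0.13 over all tested genes. It was 0.21 without LGK974 replicate 3, 0.51 without DMSO replicate 1 and 0.14 without both. DESeq2, the program of the study, called 1 of the 10 genes, Meox1, and 2.79% of the genes to which it gave an adjusted p-value, with 2.41% higher.

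**Figure D1:**
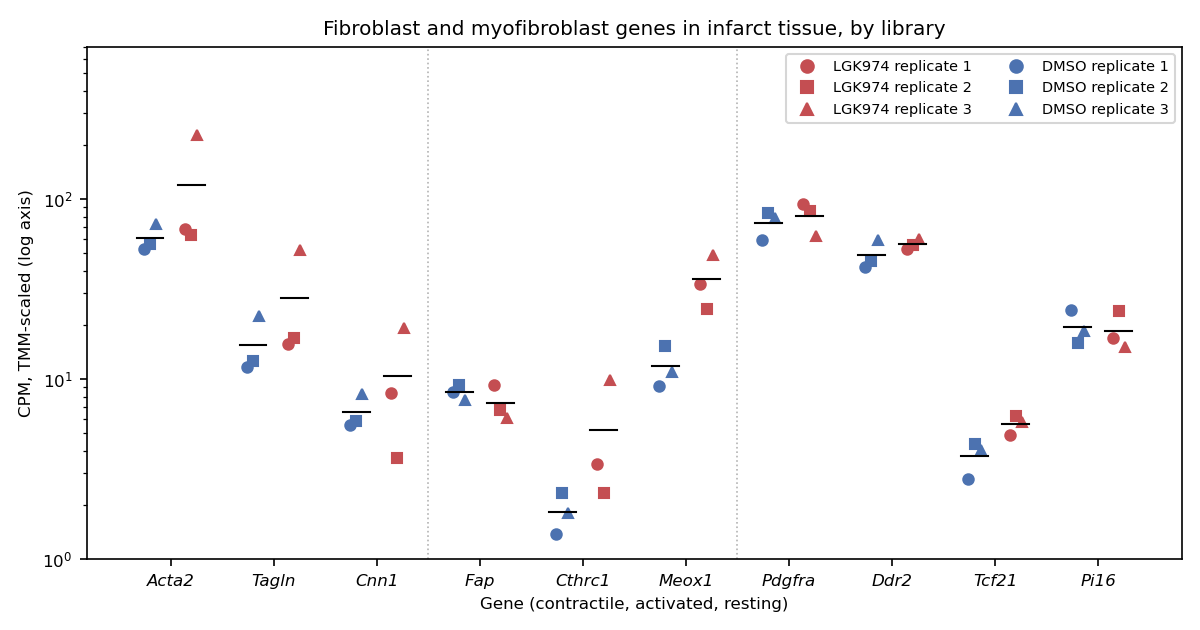
CPM (estimated counts scaled to library size and, with TMM factors, to composition, log axis) of the 10 genes in each of the 6 libraries; red marks are LGK974, blue marks DMSO, shapes are replicate numbers and black lines are group means. Meox1 and Tcf21 are the genes in which all red marks lie above all blue ones, and the red triangle of LGK974 replicate 3 lies far above the rest in Acta2, Tagln, Cnn1 and Cthrc1.

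Among the activated genes, Meox1 is known as a transcriptional switch of fibroblast activation. It occupies bases 101877510 to 101894374 of chromosome 11 (GRCm38, minus strand). Meox1 was measured at 33.7, 24.5 and 49.2 CPM (counts scaled to library size and composition) in LGK974 replicates 1, 2 and 3, and at 9.12, 15.3 and 11.0 in DMSO replicates 1, 2 and 3. The lowest LGK974 library was thus above the highest DMSO library. Group means were 35.8 ± 12.5 and 11.8 ± 3.20 CPM (SD, n = 3 each). This was an LFC of 1.60 (SE 0.298, edgeR's unadjusted p = 7.55e-04 and adjusted p = 0.368). By this p-value Meox1 ranked 34 of the 20094 tested genes. DESeq2 gave an LFC of 1.62 and an adjusted p-value of 4.63e-04. With edgeR the LFC was 1.37 without LGK974 replicate 3, 1.47 without DMSO replicate 1 and 1.19 without both. An exact permutation test on 1 gene in a design of this size, 3 mice in each group, cannot give a p-value below 0.1.

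Cthrc1 encodes a secreted protein with a collagen triple helix repeat, known from reparative fibroblasts of the infarct scar, and lies on chromosome 15 from 39076932 to 39087121. It was measured at 3.37, 2.33 and 9.90 CPM in LGK974 replicates 1 to 3 and at 1.38, 2.34 and 1.79 CPM in DMSO replicates 1 to 3. LGK974 replicate 3 was high, LGK974 replicate 2 was level with DMSO replicate 2, and the groups overlapped. Its LFC was 1.50 (SE 0.559, edgeR's unadjusted p = 0.0289 and adjusted p = 0.368). Without LGK974 replicate 3 it was 0.70 (SE 0.457), where Cthrc1 was no longer nominally higher, and without DMSO replicate 1 it was 1.35. Of all tested genes, 4.2% were nominally higher or lower without LGK974 replicate 3, against 13.4% with all 6 libraries. Cthrc1 rested on few counts, 55 to 632 per library. At the level of the receptor genes named above, a transcript of its length would hold 65.1% of its counts in DMSO replicate 1 and 0.562 to 12.0% in the other libraries. With this level subtracted in every library, the LFC was 1.73 (SE 0.701).

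Fap encodes fibroblast activation protein, a cell surface protease used as a marker of activated fibroblasts, on chromosome 2 from 62500943 to 62574075. Its levels were 9.22, 6.77 and 6.09 CPM with LGK974 and 8.50, 9.33 and 7.69 CPM with DMSO. The groups overlapped, and in CPM LGK974 replicate 3, highest of all libraries in Cthrc1 and Meox1, was the lowest in Fap. In TPM, a level per transcript length, Fap was at 3.87, 2.14 and 4.43 with LGK974 and at 4.36, 5.26 and 3.45 with DMSO. There LGK974 replicate 3 was the highest LGK974 library. The LFC was −0.21 (SE 0.221, edgeR's adjusted p = 0.638). Its size depended on the libraries and transcripts used, at −0.011 without LGK974 replicate 3, −0.18 without DMSO replicate 1, −0.40 without LGK974 replicate 1, −0.076 without LGK974 replicate 2 and −0.056 without DMSO replicate 2. It was −0.025 with protein-coding transcripts alone and −0.59 with counts scaled from TPM.

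Other genes of activated fibroblasts were read from a list of 20 matrix, crosslinking and signalling genes. Of these 19 had an LFC above 0 and 1 below, and 15 were nominally higher, beside 6.26% of all tested genes. After edgeR's adjustment 0 remained under 0.05. DESeq2 called 12, beside 2.79% of all genes to which it gave an adjusted p-value. The median LFC was 1.13, and 0.86 without LGK974 replicate 3. In that fit 11 were nominally higher, beside 4.2% of all tested genes nominally higher or lower. Without DMSO replicate 1 there were 15, beside 10% of all tested genes in either direction, and without both libraries 13, beside 7.03%. Pdpn, which encodes the membrane glycoprotein podoplanin, and Postn, which encodes the matricellular protein periostin, led the list by p-value, at an LFC of 1.32 (SE 0.181) and 1.56 (SE 0.301). In 16 of the 20 genes LGK974 replicate 3 was the highest of the 6 libraries, beside 22.5% of all tested genes. The list was chosen with earlier results of these libraries known and is no independent evidence of its direction.

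**Figure D2:**
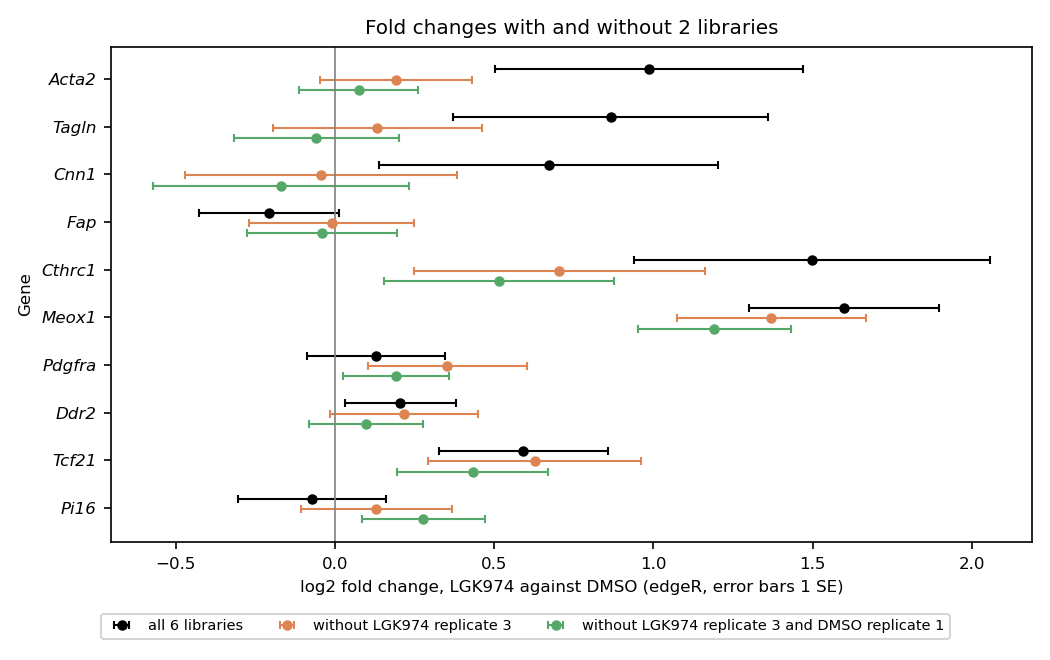
edgeR's log2 fold changes of LGK974 against DMSO for the 10 genes, with error bars of 1 standard error, from all 6 libraries (black), without LGK974 replicate 3 (orange) and without both LGK974 replicate 3 and DMSO replicate 1 (green). The contractile genes Acta2, Tagln and Cnn1 lie near 0 without LGK974 replicate 3, while Meox1 stays above 1 in all 3 fits.

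The contractile genes encode parts of the actin cytoskeleton of smooth muscle and myofibroblasts. Acta2 encodes smooth muscle alpha-actin, the protein by which myofibroblasts are usually recognised, on chromosome 19 from 34241090 to 34255590 on the minus strand. Its control by SRF is a textbook case. SRF binds the CArG box, and TEAD factors, the partners of YAP, bind GGAATG. In the RefSeq promoter table (GRCm38.p6), 6 of the 10 genes had an entry, and both strands of the 250 bases before each start were searched. Of these 6 genes, only Acta2 held GGAATG or, with at most 1 mismatch in its A/T core, the CArG box. These windows are shown because Acta2 defines the myofibroblast, with the match in capitals and 10 flanking bases on each side. They lie on the minus strand at chr19:34255504-34255529, chr19:34255438-34255467 and chr19:34255388-34255417, with matches that begin 146, 84 and 34 bases before the RefSeq start. These windows lie inside the annotated span of Acta2 given above, which reaches to 34255590, upstream of the RefSeq start.
Acta2 TEAD word: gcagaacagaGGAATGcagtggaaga
Acta2 first CArG match: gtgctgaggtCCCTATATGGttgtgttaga
Acta2 second CArG match: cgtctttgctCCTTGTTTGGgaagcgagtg
The matches do not overlap each other. Of all 32851 promoter windows, 12.6% held GGAATG, 8.59% a CArG box with at most 1 mismatch and 1.47% an exact one, which 0 of the 6 genes had. TCF/LEF factors, the nuclear partners of beta-catenin in Wnt signalling, bind CTTTGAT, which was in 3.21% of all windows. A related word, CTTTGAA, was in 4.46%, and 0 of the 6 genes held either. TATAAA was found in the window of Ddr2 and in 12.4% of all windows.

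Acta2 was measured at 68.6, 63.3 and 228 CPM in LGK974 replicates 1 to 3 and at 52.6, 56.3 and 72.8 CPM in DMSO replicates 1 to 3. LGK974 replicates 1 and 2 lay within the DMSO range, and LGK974 replicate 3 was 3.45 times the mean of these 2. The group means were 119.9 ± 93.4 and 60.5 ± 10.8 CPM (SD, n = 3 each). Acta2 thus had an LFC of 0.99 (SE 0.483, edgeR's adjusted p = 0.377), of 0.19 (SE 0.239) without LGK974 replicate 3 and of 0.90 without DMSO replicate 1.

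Tagln encodes transgelin (SM22-alpha), an actin-binding protein of smooth muscle, and lies on chromosome 9 from 45929619 to 45936058. Its levels were 15.7, 17.0 and 52.4 CPM with LGK974 and 11.6, 12.6 and 22.4 CPM with DMSO. Again LGK974 replicate 3 was apart, at 3.20 times the mean of the other LGK974 libraries, and DMSO replicate 3 lay above LGK974 replicates 1 and 2. For Tagln the LFC was 0.87 (SE 0.494, edgeR's adjusted p = 0.417), 0.13 without LGK974 replicate 3, 0.70 without DMSO replicate 1 and −0.059 without both. It was 1.33 without DMSO replicate 3.

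Cnn1 encodes calponin, which binds actin and restrains myosin, and is a late marker of the contractile state, on chromosome 9 from 22099216 to 22109630. It was measured at 8.38, 3.64 and 19.3 CPM with LGK974 and at 5.55, 5.83 and 8.30 CPM with DMSO. The LGK974 group thus held both the highest and the lowest library. The resulting LFC was 0.67 (SE 0.533, edgeR's adjusted p = 0.532), −0.043 without LGK974 replicate 3, 0.57 without DMSO replicate 1 and −0.17 without both. It was 1.13 without LGK974 replicate 2. In each of the 3 contractile genes the difference of the group means in CPM was smaller than the SD of the LGK974 mice.

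A list of 16 other contractile and actin-binding genes had a median LFC of 0.28, with 9 above and 7 below 0. Where 6.26% of all tested genes were nominally higher and 7.18% lower, 0 of the 16 were lower and 4 were higher. These were Tgfb1i1, which encodes the focal adhesion protein Hic-5, Actn1, which encodes the crosslinker alpha-actinin, and, named after their values were seen, the calponin gene Cnn2 and the caldesmon gene Cald1. Tgfb1i1 was higher in every LGK974 library, at 42.8 CPM or more against 35.0 or less, at an LFC of 0.75 (SE 0.203). Actn1 ranged from 99.9 to 234 CPM with LGK974 and from 58.9 to 106 with DMSO, at an LFC of 0.98 (SE 0.342). Without LGK974 replicate 3 the median was 0.07. In that fit 1 of the 16 genes was nominally higher, beside 4.2% of all tested genes nominally higher or lower. Without DMSO replicate 1 the median was 0.15. In 8 of the 16, LGK974 replicate 3 was the highest library, and over the list its level was 1.61 times the mean of the other LGK974 libraries at the median.

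Markers of mural cells, the smooth muscle cells and pericytes of vessels, were read beside these genes, since these cells express Acta2, Tagln and Cnn1 as well. Of 13 mural markers 6 had an LFC above and 7 below 0, 0 were nominally higher or lower, and the median LFC was −0.03 (0.11 without LGK974 replicate 3 and −0.16 without DMSO replicate 1). Their summed level was 798 to 952 CPM with LGK974 and 736 to 1126 CPM with DMSO. Mustn1 and Mcam came first by p-value, at −0.38 (SE 0.221) and 0.45 (SE 0.279). LGK974 replicate 3 was the highest library in 2 of the 13, and at the median its level was 0.950 times the mean of the other LGK974 libraries. Myh11, the smooth muscle myosin heavy chain that defines smooth muscle, was at 46.6, 65.6 and 106 CPM with LGK974 and at 89.4, 52.6 and 132 CPM with DMSO. This gene, named after its values were seen, was highest in DMSO replicate 3, and within the LGK974 group it was highest in replicate 3, at 1.89 times the mean of the other LGK974 libraries. Other genes of the contractile list, also named after their values were seen, varied in LGK974 replicate 3. It was at 2.32 times that mean for Myl9, 2.37 times for Lmod1 and 2.28 times for Tpm2. For Smtn it was at 1.36 times and for Tpm1 at 0.850 times that mean, beside the list median of 1.61. Lmod1 was highest in DMSO replicate 3, at 10.5 CPM against 9.08 in LGK974 replicate 3. What smooth muscle adds to the levels of Acta2, Tagln and Cnn1 was not tested.

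Of the genes of resting fibroblasts, Pdgfra encodes the alpha receptor for platelet-derived growth factor, a marker of nearly all cardiac fibroblasts, on chromosome 5 from 75152292 to 75198215. It was measured at 94.0, 86.2 and 62.1 CPM with LGK974 and at 59.1, 83.6 and 78.9 CPM with DMSO. In CPM, LGK974 replicate 3, the highest library in the contractile genes, was the lowest LGK974 library in Pdgfra. This depended on the unit. In TPM, Pdgfra was at 20.9, 16.8 and 29.8 with LGK974 and at 10.9, 27.1 and 18.4 with DMSO, highest in LGK974 replicate 3. For Pdgfra the LFC was 0.13 (SE 0.218, edgeR's adjusted p = 0.777). It moved with single libraries, to 0.35 without LGK974 replicate 3, 0.015 without DMSO replicate 1, 0.0054 without LGK974 replicate 1 and 0.29 without either of the other DMSO libraries.

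Ddr2 encodes discoidin domain receptor 2, a tyrosine kinase that binds fibrillar collagen, on chromosome 1 from 169972307 to 170110762. Its levels were 52.6, 55.9 and 60.3 CPM with LGK974 and 42.1, 45.4 and 58.9 CPM with DMSO. The groups overlapped through DMSO replicate 3. Its LFC of 0.21 had the smallest SE of the 10 genes, 0.175 (edgeR's adjusted p = 0.557). It was 0.22 without LGK974 replicate 3, 0.12 without DMSO replicate 1 and 0.47 without DMSO replicate 3.

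Tcf21 encodes a basic helix-loop-helix factor that specifies cardiac fibroblasts from the epicardium and is known to decline in myofibroblasts, on chromosome 10 from 22817281 to 22820174. Tcf21 was measured at 4.88, 6.21 and 5.81 CPM with LGK974 and at 2.79, 4.36 and 4.05 CPM with DMSO. All LGK974 libraries lay above all DMSO libraries, although LGK974 replicate 1 and DMSO replicate 2 were close. For Tcf21 the LFC was 0.59 (SE 0.266, edgeR's unadjusted p = 0.0578 and adjusted p = 0.368), 0.63 without LGK974 replicate 3 and 0.44 without DMSO replicate 1. The level of the receptor genes corresponded to 45.1% of the counts of Tcf21 in DMSO replicate 1, where it had 111 counts, and to 1.19 to 8.10% in the other libraries.

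Pi16 encodes peptidase inhibitor 16, a marker of fibroblasts in the outer wall of vessels, on chromosome 17 from 29317680 to 29330593. It was at 17.0, 23.8 and 15.0 CPM with LGK974 and at 24.3, 15.8 and 18.6 CPM with DMSO. The groups overlapped over most of their range. Its LFC of −0.07 (SE 0.233, edgeR's adjusted p = 0.891) changed sign without DMSO replicate 1 and without LGK974 replicate 3, at 0.13 in both, and was 0.10 with libraries scaled by total counts.

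Among 14 other genes of resting fibroblasts, 7 had an LFC above and 7 below 0, with a median of −0.01. Nominally, 3 were higher and 1 lower, beside 6.26% and 7.18% of all tested genes. Without LGK974 replicate 3 the median was 0.24, with 4 nominally higher and 0 lower, beside 4.2% of all tested genes in either direction. Without DMSO replicate 1 the median was −0.09. Col15a1, the gene of a basement membrane collagen, had 177 to 314 CPM with LGK974 and 81.9 to 119.6 with DMSO, at an LFC of 1.16 (SE 0.267). Mfap5, the gene of a microfibril protein, had 58.3 to 80.2 CPM with LGK974 and 32.8 to 47.8 with DMSO, at an LFC of 0.86 (SE 0.205). The others, named after their values were seen, were Mfap4, at an LFC of 1.02, and the scavenger receptor gene Scara5, nominally lower at 5.21 to 12.4 CPM with LGK974 against 12.4 to 23.4 with DMSO, and not without LGK974 replicate 3 (edgeR's unadjusted p = 0.0721). The summed level of the list was 998 to 1455 CPM with LGK974 and 870 to 1518 CPM with DMSO, so the groups overlapped.

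**Figure D3:**
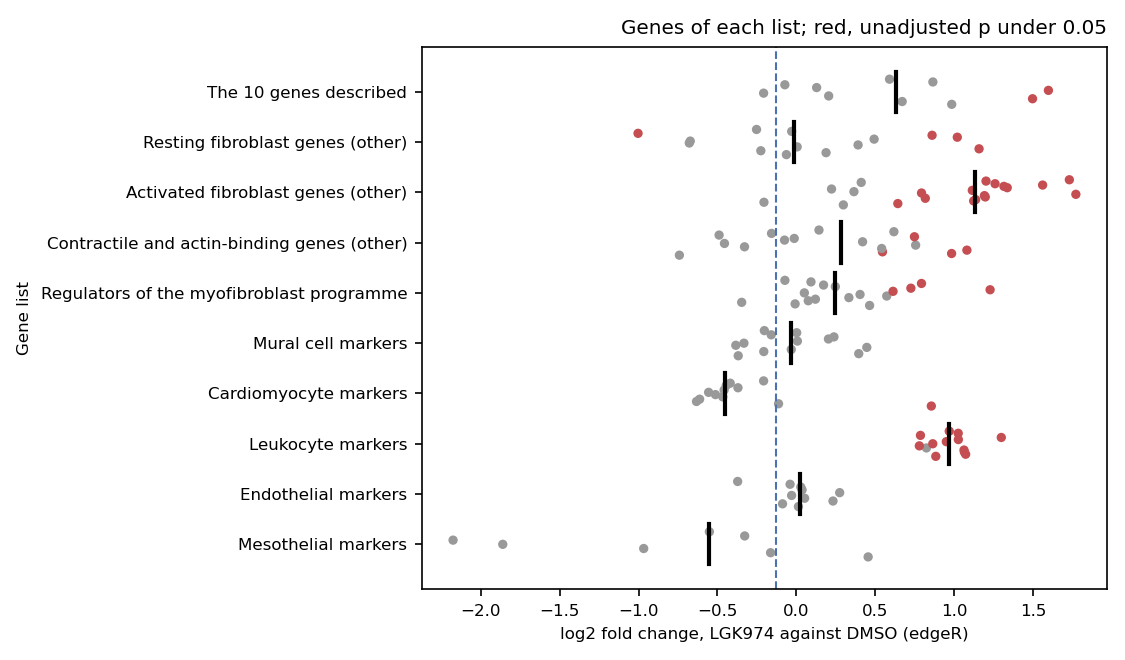
edgeR's log2 fold change of each gene in the lists read here, with LGK974 against DMSO; red points have an unadjusted p-value under 0.05, black bars are list medians and the dashed line is the median of all tested genes. The activated fibroblast list has its median at 1.13 and the leukocyte markers at 0.97, while the medians of the mural and endothelial markers are −0.03 and 0.02.

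Of 17 genes that regulate the myofibroblast programme (the TGF-beta pathway, SRF with its coactivators, YAP and its partners, and the factors Twist1 and Snai1), 14 had an LFC above and 3 below 0, and 4 were nominally higher and 0 lower. Of all tested genes, 6.26% were nominally higher and 7.18% lower. The median LFC of the 17 genes was 0.25, and 0.16 without DMSO replicate 1. Without LGK974 replicate 3 it was 0.23, and 3 genes were nominally higher, beside 4.2% of all tested genes nominally higher or lower. Tgfb2 and Tgfb3, which encode TGF-beta ligands, had an LFC of 1.23 (SE 0.243) and 0.73 (SE 0.202). In both, the LGK974 libraries lay above all DMSO libraries, at 52.9 to 89.2 against 27.3 to 38.7 CPM for Tgfb2 and at 16.0 or more against 12.9 or less for Tgfb3. The other 2, named after their values were seen, were Tgfb1, at 0.61, and Twist1, at 0.79. Srf itself and Myocd were also named after their values were seen. Srf was at 28.8, 31.4 and 48.2 CPM with LGK974 and at 19.0 to 31.9 CPM with DMSO, highest in LGK974 replicate 3. Its LFC was 0.40 (edgeR's unadjusted p = 0.174). Myocd, which encodes the SRF coactivator myocardin of cardiac and smooth muscle, had an LFC of −0.35 (edgeR's unadjusted p = 0.117).

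Levels of different genes can be compared per transcript length, for which the TPM values were summed per gene. In the DMSO mice the order of mean TPM was Acta2 at 38.5 ± 10.4, Pdgfra at 18.8 ± 8.11, Tagln at 11.7 ± 5.63, Ddr2 at 9.79 ± 0.918 and Pi16 at 5.99 ± 2.08 (SD, n = 3 each). Below these came Meox1 at 4.99 ± 1.97, Cnn1 at 4.66 ± 1.48, Fap at 4.35 ± 0.905, Tcf21 at 2.86 ± 1.22 and Cthrc1 at 1.92 ± 0.752. Between neighbours in this order, only Acta2 and Pdgfra, and Ddr2 and Pi16, did not overlap over the 3 libraries. With LGK974 all neighbours overlapped, and the spread was wide, as in Acta2 with 118 ± 132 TPM (SD, n = 3). Meox1, at 21.1 ± 15.6 TPM, then came after Acta2, Tagln and Pdgfra in order and before Ddr2 and Pi16, which lay above it with DMSO.

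The ratio of a gene to Pdgfra within a library does not depend on how libraries are scaled. The log2 ratio of Meox1 to Pdgfra in TPM was −0.36, −0.99 and 0.37 in LGK974 replicates 1 to 3 and −1.89, −1.98 and −1.84 in DMSO replicates 1 to 3. The DMSO libraries were close together, and all LGK974 libraries lay above them, by 1.58 in the mean, or by 1.45 with CPM. Fap relative to Pdgfra lay lower in all LGK974 libraries, by −0.68 in the mean (−0.33 without DMSO replicate 1), and Tcf21 higher, by 0.62, but the groups of both overlapped when CPM was used. Acta2 relative to Pdgfra was 1.28, 0.95 and 3.18 with LGK974 and 1.50, 0.34 and 1.45 with DMSO, so only LGK974 replicate 3 lay outside the DMSO range.

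The counts fell on several annotated transcripts in all genes but Meox1, which had 1. For Acta2, the longer transcript (2035 bases) held 80.1 to 82.4% of the counts with LGK974 and 66.3 to 87.9% with DMSO, so the high level in LGK974 replicate 3 came with a split between its 2 transcripts within the DMSO range. Fap was divided over 9 transcripts, and those not annotated as protein-coding, such as retained introns, held 67.4% of its counts in DMSO replicate 1 and 23.1 to 39.0% in the other libraries. For Tagln such transcripts held 9.13 to 27.0%, and for Pi16 5.25 to 22.5%. The leading transcript of Pi16 (3288 bases) held 44.2, 23.8 and 23.3% with LGK974 and 63.1, 59.1 and 22.6% with DMSO (exact permutation test, two-sided, p = 0.4). In the 9 genes with several transcripts, the share of the leading one gave exact permutation p-values of 0.4 to 1. With protein-coding transcripts alone, 2 of the 10 genes were nominally higher, as with all transcripts. Of all genes tested in that fit, 14.9% were nominally higher or lower.

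Reads can be shared where transcripts of other genes hold the same sequence. Of all 31-base words in the transcripts of each gene, 0 were shared with another gene for Cnn1 and Cthrc1, and 0.0910 to 3.93% for the other 8. The highest share was that of Tagln, all of it with Pcsk7 on the other strand, where 108 exon bases overlap. For Acta2 it was 1.39%.

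The level of the receptor genes was set against the counts of each gene in each library. In DMSO replicate 1 it exceeded 10% of the counts in 7 of the 10 genes, in DMSO replicate 2 in 1, and in the other 4 libraries in 0. In 7 of the 10 genes DMSO replicate 1 was also the lowest of the 6 libraries, beside 27.2% of all tested genes. With this level subtracted, the LFC was 1.57 for Meox1, 0.84 for Acta2, 0.69 for Tcf21 and 0.02 for Pdgfra.

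**Figure D4:**
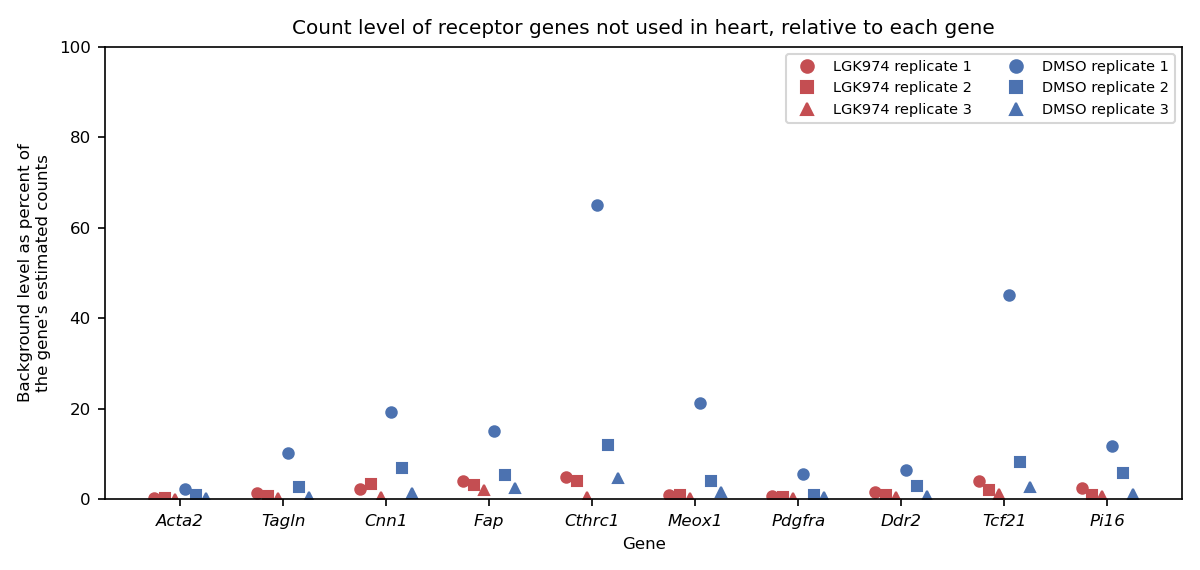
For each gene and library, the counts that a transcript of its length would hold at the median level of olfactory, vomeronasal and bitter taste receptor genes, as a percent of the gene's own estimated counts. DMSO replicate 1 (blue circles) is the highest library in all 10 genes, with 65.1% for Cthrc1 and 45.1% for Tcf21, while the LGK974 libraries stay below 5%.

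As a description over the 6 libraries, which differ in depth and composition, the genes most like Acta2 in log2 CPM were Tbc1d31, Prrx1 and Stim2, with Pearson's r of 0.991, 0.988 and 0.987 among 15525 genes with a mean of at least 1 CPM. Prrx1 encodes a homeobox factor of mesenchymal cells. Those most like Cthrc1 were Hnrnpd, Ext1 and Gar1 (r of 0.999, 0.995 and 0.994), and those most like Pdgfra were Ms4a4d, Scoc and Trpv4 (0.991, 0.984 and 0.982). For the first and second of these groups, LGK974 replicate 3 was the highest library in all 6 genes. Since the 3 highest of 15525 genes over 6 libraries were taken each time, high values of r follow in part from the selection. What links these genes was not tested.

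Markers of other cell types were read beside these genes. All 13 leukocyte markers had an LFC above 0, and 12 were nominally higher, beside 6.26% of all tested genes. Their summed level was 502 to 649 CPM with LGK974 against 219 to 316 with DMSO. Lyz2 and Cd53 came first by p-value, at an LFC of 1.30 and 1.07. Of 12 cardiomyocyte markers 11 had an LFC below 0, 0 of them nominally lower, with a summed level of 42637 to 60528 CPM against 48938 to 67667. The exception was Actc1, the cardiac actin gene, nominally higher at 0.86, and Ckm, the muscle creatine kinase gene, followed at −0.63. The median LFC of the cardiomyocyte markers was −0.45, and −0.27 without LGK974 replicate 3. The 10 endothelial markers had a median of 0.02 (−0.11 without DMSO replicate 1), with Vwf at −0.37 and Kdr at 0.28, and summed levels of 563 to 631 CPM against 492 to 683. Of 7 mesothelial markers 6 had an LFC below 0 and 0 were nominally lower, among them Wt1 at −0.55 and Muc16 at −1.86, with summed levels of 11.2 to 12.0 CPM against 10.6 to 35.6, highest in DMSO replicate 1. None of the markers of these lists was at 0 in every library. The part of the cell mixture in the values of the fibroblast genes was not tested.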

How the data were processed

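The authors quantified each library with Kallisto on Ensembl transcripts of GRCm38, the build also named in the submitters' processing notes (version and trimming not given in the sources used here) from ribosome-depleted RNA, and deposited estimated counts and TPM for 118489 transcripts. The labels and the study's methods name both RiboZero and a capture kit. Here 98.6% of the transcripts were joined to genes of GENCODE M21, and their estimated counts were summed and rounded. Genes with 10 or more counts in 3 or more libraries were tested with edgeR 4.0.16 (R 4.3.3; TMM, treatment as the only factor, quasi-likelihood test, Benjamini-Hochberg adjustment over all tested genes). The SE is the log2 fold change over the root of the F statistic. DESeq2 1.42.0 and limma 3.58.1 (voom) were alternatives, beside other normalizations, filters, units and left-out libraries. The fits on protein-coding transcripts alone and without both DMSO replicate 1 and LGK974 replicate 3 were added after seeing the data. Deposited TPM was summed per gene for levels and ratios. Precision was limited by 3 mice per group and, for Cthrc1 and Tcf21, by low counts. Kallisto divides reads that match several transcripts, so values of single transcripts are less certain than those of genes.

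The 10 genes and the lists were chosen with earlier results of these data known. Named from each list were its first 2 genes by p-value, and for likeness the 3 genes with the highest correlation. Other genes of the lists are marked where they were named after their values were seen. Counts were also simulated for the 20094 tested genes of this comparison with their fitted dispersions, 200 of them with a true difference of 2 on the log2 scale. Of these 200, edgeR recovered 51%, DESeq2 67.5% and limma-voom 46.5%. Their calls numbered 109, 213 and 98, of which 7, 78 and 5 were false. The simulated difference was larger than the LFC of any of the 10 genes, at most 1.60 for Meox1. Simulated counts varied independently from gene to gene, without a library that stood apart. The simulation therefore does not say how often differences such as those of the 10 genes would be found. Python 3.11.15 with pandas 2.3.3, NumPy 2.4.6, SciPy 1.17.1 and matplotlib 3.10.9 was used for tables and figures.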

Additional observations from a re-analysis of the deposited data

How the results depend on the processing

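By edgeR 0 of all tested genes, and 0 of the 10, were under 0.05 after adjustment (2699 of all before it). DESeq2 called 354 genes, 2.79% of those to which it gave an adjusted p-value, 1 of the 10 among them. Without a filter on low counts edgeR called 1206 of 34257 tested genes and 4 of the 10, namely Meox1, Cthrc1, Tagln and Acta2. With each library left out in turn, 0 to 2 genes passed, 2 without DMSO replicate 1, and 0 of the 10. Without both DMSO replicate 1 and LGK974 replicate 3, a choice made after seeing the data, 1 gene passed. At an unadjusted p-value under 0.05 the count of 2 among the 10 genes became 4 with total counts only, 1 with limma-voom, 5 without a filter, 1 to 5 with each library left out (1 without LGK974 replicate 3, 4 without LGK974 replicate 2 and 5 without DMSO replicate 3) and 1 without both libraries. The share of all tested genes under it was 11.8% with total counts only, 9.7% with limma-voom and 14% without a filter. With a library left out it was 4.2 to 23.1%. It was 23.1% without DMSO replicate 3, 9.14% without LGK974 replicate 2 and 4.2% without LGK974 replicate 3. Without both libraries it was 7.03%. Fewer libraries overlap less often by construction: 3 to 6 of the 10 genes had no overlap with a library left out, beside 22.5 to 46.1% of all tested genes, 6 beside 46.1% without DMSO replicate 3 and 4 beside 30.0% without LGK974 replicate 2. The median log2 fold change of the 10 genes was 0.21 to 0.87 with a library left out, lowest without LGK974 replicate 3, and 0.14 without both.

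The replicate numbers are shared by the groups, but same-numbered mice deviated together in 2 of 3 pairs only (correlations of 0.475, −0.0482 and 0.391), and 2 of the 3 LGK974 mice correlated best with their own number. With the replicate block, edgeR again left 0 genes under 0.05 after adjustment, and 4 of the 10, Meox1, Cthrc1, Tagln and Acta2, were under it before adjustment, beside 16.5% of all tested genes.

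Signs changed for Tagln (−0.059 without both libraries), for Cnn1 (−0.043 without LGK974 replicate 3, up to 1.13 without another library, −0.17 without both) and for Pi16. For Pi16 they were 0.10 with total counts, 0.11 without a filter, 0.34 with counts scaled from TPM, −0.21 to 0.13 with each library left out and 0.28 without both. Relative to Pdgfra, Cnn1 was −0.23 without LGK974 replicate 3 and up to 1.13 without another library. The ratio of Ddr2 was 0.10 in CPM and between −0.42 and 0.26 with a library left out, and that of Pi16 was −0.20 in CPM and between −0.24 and 0.52. The share of the leading transcript differed by 2.80 percentage points for Pdgfra and by 3.57 for Ddr2 in TPM, against −0.33 and −5.16 in counts. The causes were not tested. The median of all genes moved by 0.21 with total counts, by −0.42 without a filter, which adds genes of low counts, by 0.11 with background subtracted, by 0.15 without DMSO replicate 3 and by 0.11 without both libraries. Of 200 fold changes of single genes under alternatives, 185 kept sign and call.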
